A study of Gallus gallus with 22 samples.

Results

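In the jejunum of the broilers, 9674 genes were well expressed, defined as a mean of 10 or more CPM (read counts scaled to a common library size) over the 11 jejunal libraries after scaling by the trimmed mean of M-values (TMM). They were 66.8% of the 14488 genes that had enough counts to be tested and held 98.3% of all jejunal counts, out of 17007 genes in the count table. The gene just inside the limit had a mean of 10.01 CPM and the gene just outside it had 9.9998 CPM. The choice used only the mean level and not the diets. No gene with a mean of 10 CPM or more was left out by the filter on low counts.

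The birds were Ross 308 male broilers, a fast-growing meat chicken. They ate a coarsely ground corn-based diet either unchanged (control, 0% sugarcane bagasse) or with 2% sugarcane bagasse (SB) added on top, which dilutes every other ingredient, and the tissue was taken at day 24. One broiler was taken from each pen, so each library stands for 1 pen, and the piece of proximal jejunum was the whole wall with all its cell types. There were 5 control and 6 SB jejunal libraries, and all broilers shared the strain, the sex, the age and the base diet. In such bulk tissue, fewer cells of a type and less RNA per cell cannot be told apart.

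Sugarcane bagasse is the fibrous residue left after the juice is pressed from the cane, rich in insoluble cellulose, hemicellulose and lignin. The jejunum is the main absorbing segment of the avian gut. Its enterocytes carry a brush border of microvilli that holds digestive enzymes and transporters, goblet cells secrete mucus, and the villus epithelium is renewed from the crypts. The comparison asks how far a small addition of insoluble fibre moved the transcripts that make up most of this tissue's messenger RNA.

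Total counts ranged from 42998544 to 54841516 in the control libraries and from 42540952 to 203039911 in the SB libraries, with SB replicates 5 and 6 the deepest. These totals are larger than the read numbers in the study's own summary, and the source of that difference is not given in the sources used here. The lowest count of any well-expressed gene in any library was 16, and the median over genes of the lowest count was 1690. MYO7B, a myosin of the brush border, had mean levels of 1009 ± 158 and 1024 ± 124 CPM in control and SB jejunum and of 2.47 CPM in control and 8.29 CPM in SB pancreas, so the libraries carried the labelled tissue by this gene. Of the defining cell type markers only AGR2 and TFF3, both of mucus-secreting cells, could be matched to an identifier here, and AGR2 was well expressed in every jejunal library. The other defining markers were not analysed here.

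Control replicate 4 and SB replicates 1 and 6 stood apart from the other 8 libraries on the first principal component, which was computed without the diets. The first principal component held 53.5% of the variance of the well-expressed genes. On it SB replicate 1 scored 42.1, control replicate 4 39.7 and SB replicate 6 21.2, while control replicate 2 scored 9.83 and all others -11.3 or less. Control replicate 2 thus lay nearer to SB replicate 6 than to the remaining libraries, so the border of the 3 is not sharp. The component had a mean of 0.0916 in the control and -0.0764 in the SB libraries (exact permutation test, two-sided, p = 0.991). Deviations of control replicate 4 and SB replicate 1 from their diet means correlated across genes (r = 0.78, 9674 genes of 2 libraries, which are not independent replicates). Some results that rest on these libraries, though not all, are given with and without them. Leaving them out, and fitting the component as a covariate, were both chosen after seeing the data.

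Not one well-expressed gene differed between the diets after adjustment over all genes tested (edgeR quasi-likelihood test, 0 genes, smallest Benjamini-Hochberg adjusted p = 0.999775). Over all 14488 genes tested the share called was also 0%. DESeq2 and limma-voom gave 0 genes as well. At an unadjusted P under 0.05, edgeR gave 121 well-expressed genes (1.25%), against 1.97% of all genes tested and 3.43% of the 4814 tested genes below 10 CPM. DESeq2 gave 153 well-expressed genes (1.58%) and limma-voom 104 (1.08%), and their shares of all genes tested are not given here. The 121 genes were split evenly, 61 higher and 60 lower in SB, where the shares of all genes tested were 1.07% and 0.904%. P-values spread evenly would put 483.7 genes in each interval of 0.05, and 703 genes (7.27%) had a P of 0.95 or more.

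The count of 121 moved with single libraries. It was 304 (3.14%) without control replicate 4, 227 (2.35%) without SB replicate 1 and 78 (0.806%) without control replicate 2. The shares of all genes tested in these fits are not given here, so the counts show only how the call moves. With all 3 of the libraries that stood apart left out (4 control and 4 SB libraries), 382 genes (3.95%) had an unadjusted P under 0.05, 146 higher and 236 lower in SB, beside 4.43% of all genes tested. The adjusted calls stayed at 0 among well-expressed genes there, with a smallest adjusted p of 0.261 (edgeR), and 1 gene below 10 CPM was called. With the first principal component as a covariate the count was 314 (3.25%, against 3.94% of all genes tested), 135 higher and 179 lower in SB.

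The differences themselves were small. The median log2 fold change (SB minus control) was -0.00075, and the median size of the change in either direction was 1.04-fold. At the 95th percentile it was 1.20-fold and at the 99th percentile 1.48-fold. Only 13 genes (0.134%, against 0.683% of all genes tested) had an estimate of 2-fold or more, 5 higher and 8 lower in SB, and 4 of these (0.0413%, against 0.338%) also had an unadjusted P under 0.05. This last count was 30 (0.31%) without SB replicate 1 and 17 (0.176%) without control replicate 4. It was 9 (0.093%) without SB replicate 2 or 5 and 8 (0.0827%) without control replicate 5. With the 3 libraries that stood apart left out it was 38 (0.393%), of which 4 were higher in SB. The shares of all genes tested in these fits are not given here, so the counts show only how the call moves.

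**Figure D1:**
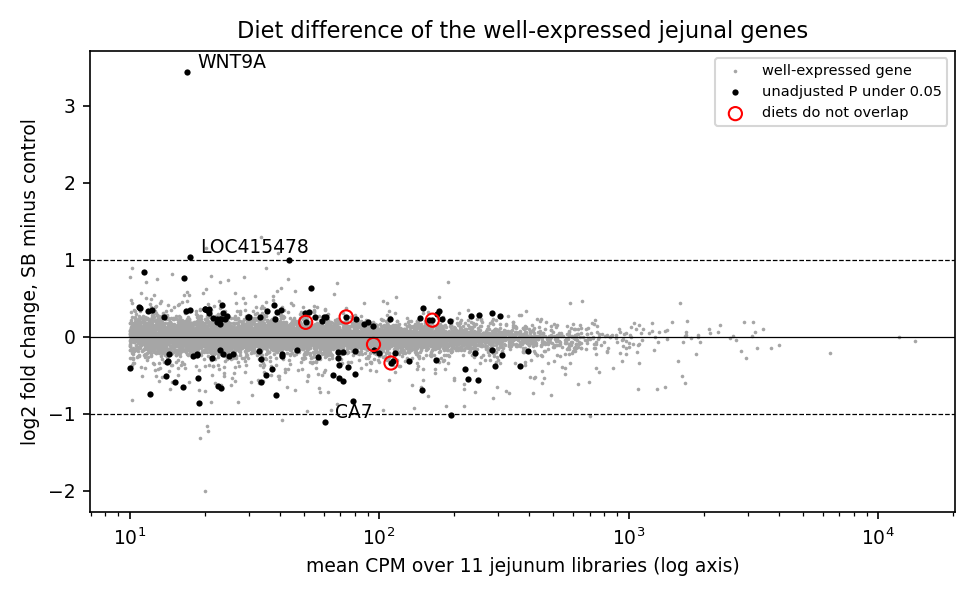
Log2 fold change (SB minus control, vertical axis) against mean CPM over the 11 jejunal libraries (horizontal log axis) for the 9674 well-expressed genes, with the 121 genes at an unadjusted P under 0.05 in black, the 5 genes whose diets do not overlap ringed in red, and dashed lines at 2-fold. The cloud lies close to 0 at every level, with WNT9A far above it at 3.44.

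The 95% intervals state how large a diet difference each gene's libraries leave possible. The whole interval lay inside 2-fold in either direction for 9268 genes (95.8%, against 86.4% of all genes tested) and inside 1.5-fold for 8209 genes (84.9%, against 66.8%). Inside 1.25-fold it lay for 4582 genes (47.4%, against 32.6%). The median half-width was 0.26 on the log2 scale, and the bound farthest from no change was 1.26-fold for the median gene, 1.91-fold at the 95th percentile and 3.46-fold at the 99th. No gene had an interval wholly past 2-fold, and 2 genes (0.0207%, against 0.11% of all genes tested) had one wholly past 1.25-fold. Each interval covers 1 gene at a time. Intervals widened to hold together over all genes tested lay inside 2-fold for 4481 genes (46.3%) and inside 1.5-fold for 420 genes (4.34%).

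Precision did not simply grow with level. The median half-width fell from 0.31 in the 1856 genes at 10 to 20 CPM to 0.23 in the 2129 genes at 50 to 100 CPM, then rose to 0.37 in the 228 genes at 500 CPM or more. In that highest class 86.4% of genes had an interval inside 2-fold and 64.0% inside 1.5-fold, the smallest shares of the 5 classes, and 0 genes had an unadjusted P under 0.05. Among the genes with a symbol this class holds MYO7B, KRT40, BCHE and CYP2C23a, which are described by role further on.

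**Figure D2:**
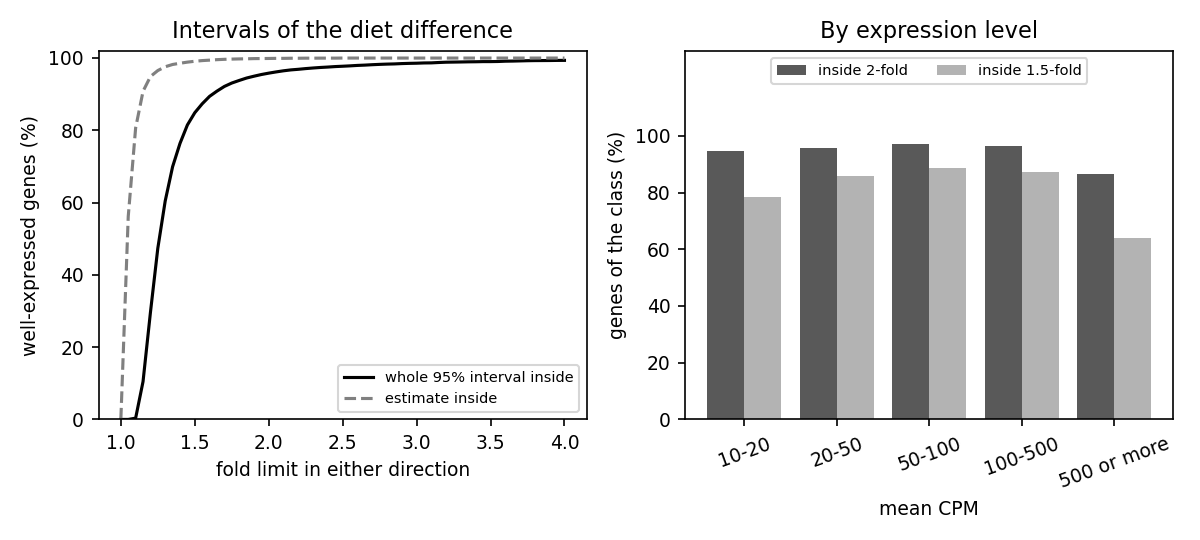
Left, share of the 9674 well-expressed genes (%, vertical axis) whose estimate (dashed) or whole 95% interval (solid) lies inside a given fold limit (horizontal axis); right, share of genes (%) with an interval inside 2-fold and 1.5-fold by class of mean CPM. The solid curve reaches 84.9% at 1.5-fold and 95.8% at 2-fold, and both bars are lowest at 500 CPM or more.

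For 406 genes (4.20%) the interval reached past 2-fold. In 313 of them (77.1%) the library farthest from the mean of its diet was control replicate 4 or SB replicate 1 or 6, which held for 5507 (56.9%) of all well-expressed genes. Fitting the first principal component as a covariate brought the median half-width from 0.26 to 0.21. The component is the direction of largest variance of these same genes, so narrower intervals were close to given. The part of control replicate 4 and SB replicates 1 and 6 in the single wide intervals was not tested.

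Most of the 121 genes at an unadjusted P under 0.05 had small differences. Their median fold was 1.23, 117 were below 2-fold and 103 below 1.5-fold. The sign held in each of the 11 fits that left out 1 library for all 121, while P stayed under 0.05 in all 11 fits for 26 genes, 14 higher and 12 lower in SB. The 121 were picked by their P with all libraries, and each of these fits reuses all but 1 of those libraries. A kept sign was therefore close to given, and the 26 are a further selection from the same values, not separate support. Of those 26 genes, 25 were below 2-fold, with a median of 1.25-fold, and in 23 all 6 SB libraries lay on one side of the control median. Without the 3 libraries 21 of the 26 still had a P under 0.05, and with the first principal component as a covariate all 26 did. With that covariate 117 of all 121 genes kept a P under 0.05. Both fits reuse the same libraries, and the component was computed from these genes among others, so neither is separate support. Only LOC415478 among the 26 had a symbol.

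In 5 well-expressed genes (0.0517%, against 0.11% of all genes tested) every library of one diet lay above every library of the other, 3 higher and 2 lower in SB. All 5 were changes below 2-fold, none could be given a symbol here, and none passed the adjusted threshold. Without the 3 libraries that stood apart, 207 genes (2.14%, against 2.41% of all genes tested) did not overlap. With fewer libraries the diets separate more often by chance alone, so this count cannot be set against the 5. All 5 were picked because their diets do not overlap, which alone puts the exact permutation p at or near its smallest value. The permutation p-values given for them restate that choice and are not further support. Of the 5, 2 higher and 2 lower in SB are given by identifier, with no role stated.

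ENSGALG00010015296 had the smallest P of all well-expressed genes and was higher in SB. Its levels in control replicates 1 to 5 were 65.6, 58.8, 72.1, 69.8 and 66.99 CPM. In SB replicates 1 to 6 they were 83.01, 77.2, 78.9, 81.9, 78.2 and 79.4 CPM. The highest control broiler lay under the lowest SB broiler, and the SB broilers lay closer together than the control broilers. The means were 66.7 ± 5.06 CPM (SD, n = 5) in the control broilers and 79.8 ± 2.23 CPM (SD, n = 6) in the SB broilers, a fold of 1.2 with a 95% interval of 1.09 to 1.32. The unadjusted P was 0.00167 in edgeR and the exact permutation test gave p = 0.00216, the smallest that 5 against 6 libraries allow.

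ENSGALG00010020612 was also higher in SB. Control replicates 1 to 5 had 155, 125, 149.7, 157 and 164 CPM and SB replicates 1 to 6 had 180.5, 181, 173, 169.8, 171 and 173 CPM. Control replicate 2 was the lowest of all 11, and the SB libraries lay close together. The fold was 1.16 (95% interval 1.04 to 1.3) with P = 0.0121 (edgeR, unadjusted) and p = 0.00216 in the exact permutation test. A further gene higher in SB had 47.2 ± 1.52 CPM (SD, n = 5) in the control broilers and 53.8 ± 2.81 CPM (SD, n = 6) in the SB broilers, a fold of 1.14 with an exact permutation p of 0.00433. Its edgeR P was under 0.05 with the jejunal libraries and above it in 1 fit over both tissues, with log2 fold changes of 0.19 in both.

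ENSGALG00010022172 was lower in SB. Its control levels were 117, 162, 121, 115 and 115 CPM, and its SB levels were 101, 104, 101, 97.8, 107 and 86.9 CPM. Control replicate 2 was far above the other 4 control broilers, and the log2 fold change of -0.34 became -0.23 without it. The means were 126 ± 20.2 CPM (SD, n = 5) in the control broilers and 99.6 ± 6.91 CPM (SD, n = 6) in the SB broilers, which is 0.791-fold (95% interval 0.681 to 0.917), P = 0.00487 (edgeR, unadjusted) and p = 0.00216 (exact permutation).

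ENSGALG00010025055 was the other gene lower in SB, and its diets lay close together. Control broilers had 99.3, 98.9, 98.1, 95.5 and 101 CPM and SB broilers 92.00, 94.1, 91.1, 89.3, 93.6 and 92.3 CPM. The fold was 0.934 with a 95% interval of 0.866 to 1.01 that includes no change, and P was 0.0759 in edgeR but 0.0108 in DESeq2. The first 3 genes given by identifier had an unadjusted P under 0.05 in all 11 fits that left out 1 library, and this gene in none of them. Picking genes whose diets do not overlap favoured low P-values in these fits, so they are not separate support. Each of the first 3 had its estimate of smallest size without control replicate 2 (log2 fold changes 0.22, 0.16 and -0.23). ENSGALG00010015296 lost the P under 0.05 in 1 fit over both tissues (log2 fold change 0.26), and ENSGALG00010020612 with the replicate number as a block (0.22).

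**Figure D3:**
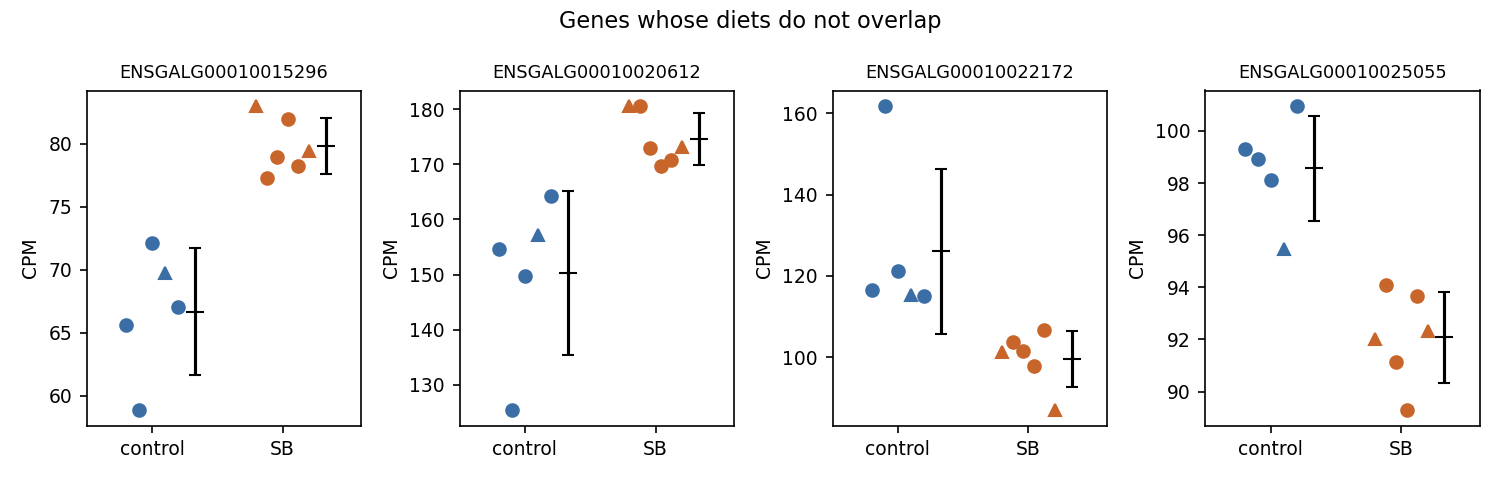
CPM (vertical axes, which do not start at 0) of 4 genes whose diets do not overlap, 1 point a library, with control replicate 4 and SB replicates 1 and 6 as triangles; bars give the mean ± SD of 5 control and 6 SB libraries. ENSGALG00010015296 and ENSGALG00010020612 are higher in SB and the other two are lower, each by less than 1.3-fold.

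Of the 13 genes with an estimate of 2-fold or more, 3 had a symbol: CA7, LOC415478 and WNT9A. The study picked these 3 from the same libraries, so their unadjusted P-values are not independent evidence. In 8 of the 13 the farthest library was control replicate 4 or SB replicate 1 or 6, which held for 56.9% of all well-expressed genes. Without those libraries 7 of the 13 kept an estimate of 2-fold or more, and in 9 the medians of the diets were 2-fold or more apart.

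CA7 encodes a cytosolic carbonic anhydrase, which interconverts carbon dioxide and bicarbonate, and it was lower in SB. The gene lies on chromosome 11, 10955900 to 10965433 (GRCg7b, RefSeq). Control replicates 1 to 5 had 117, 113, 69.3, 73.7 and 53.7 CPM, and SB replicates 1 to 6 had 13.97, 57.8, 46.2, 76.5, 34.9 and 9.93 CPM. In CA7 4 SB broilers lay under every control broiler, SB replicates 2 and 4 overlapped the control range, and the lowest values came from SB replicates 6 and 1. The means were 85.4 ± 28.2 CPM (SD, n = 5) in the control broilers and 39.9 ± 25.7 CPM (SD, n = 6) in the SB broilers, a log2 fold change of -1.10 ± 0.46 (SE) or 0.467-fold (95% interval 0.234 to 0.929), P = 0.0327 (edgeR, unadjusted) and p = 0.039 (exact permutation). With control replicate 4 and SB replicates 1 and 6 left out, CA7 still differed by -0.71 on the log2 scale at an unadjusted P under 0.05, and P rose above 0.05 when control replicate 1 or 2 or SB replicate 1 or 5 was left out. The call was also lost in 1 fit over both tissues and with the replicate number as a block, where the log2 fold changes were -1.09 and -0.99.

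LOC415478, a gene with no assigned name on chromosome 10, 12316241 to 12359136, was higher in SB. Control replicates 1 to 5 had 9.03, 11.7, 10.7, 11.2 and 12.8 CPM, within a narrow range. SB replicates 1 to 6 had 44.2, 20.9, 19.5, 18.2, 25.2 and 8.39 CPM. For this gene 5 of the 6 SB broilers lay above every control broiler and SB replicate 6 lay below them all. The log2 fold change was 1.03 ± 0.32 (SE), a fold of 2.05 with an interval of 1.27 to 3.31 and P = 0.00683 (edgeR, unadjusted), with p = 0.0368 by the exact permutation test. It stayed between 0.73 (without SB replicate 1) and 1.21 (without SB replicate 6) when single libraries were left out, with P under 0.05 each time. With control replicate 4 and SB replicates 1 and 6 all left out, the log2 fold change was 0.93, also at an unadjusted P under 0.05.

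WNT9A encodes a secreted ligand of the WNT pathway, which controls the renewal of the intestinal epithelium, and its difference came from 1 bird. On chromosome 2, 2603326 to 2656926, it had 1.48, 2.52, 3.91, 2.1 and 3.34 CPM in control replicates 1 to 5. In SB replicates 1 to 6 it had 1.16, 3.29, 3.89, 4.92, 2.7 and 157 CPM. WNT9A was below 5 CPM in 10 of the 11 libraries, so this gene counts as well expressed only through SB replicate 6. The estimate was 3.44 ± 1.29 (SE) on the log2 scale, with a fold interval of 1.55 to 76.2, and the exact permutation test gave p = 0.416. With that broiler left out the estimate fell to 0.25, and with all 3 of the libraries that stood apart left out it was 0.35, neither with an unadjusted P under 0.05.

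**Figure D4:**
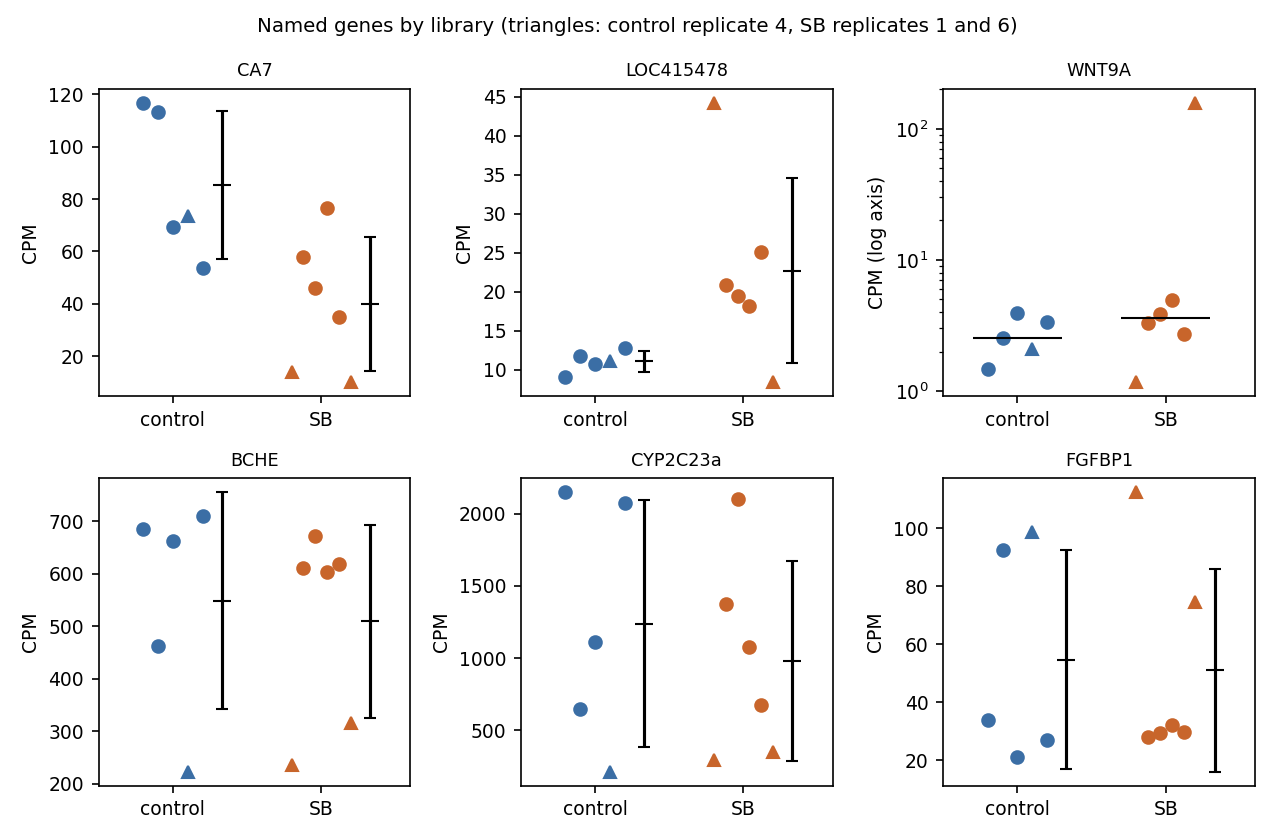
CPM by library for 6 genes (vertical axes, log scale for WNT9A), with control in blue, SB in orange, and triangles for control replicate 4 and SB replicates 1 and 6; bars give the mean ± SD, and lines the median for WNT9A. WNT9A stands on SB replicate 6 alone, and the triangles of both diets lie together at the low end of BCHE and CYP2C23a and toward the high end of FGFBP1.

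The remaining genes with a symbol were the 38 well-expressed jejunal genes from the study's list for the pancreas, picked there from the pancreatic libraries. In the jejunum none of the 38 had an unadjusted P under 0.05 (edgeR, smallest P = 0.0875 for ATP10B, exact permutation p from 0.102 to 0.961), beside the 1.97% of all genes tested. Their estimates were higher in SB for 13 and lower for 25, with a median log2 fold change of -0.07 and a range from -0.53 (GATD3AL2) to 0.39 (ABCB5), beside a median of -0.00075 over all well-expressed genes. The 95% interval lay inside 2-fold for 31 and inside 1.5-fold for 14. Values below are mean ± SD in 5 control and 6 SB libraries, in that order, and each fold is SB over control with its 95% interval. For some of the 38 an unadjusted P under 0.05 with 1 library left out is given below. Leaving out a library that lies against a difference enlarges that difference, and 11 such fits were run per gene. These crossings are therefore no support for a diet difference.

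Genes of the brush border and the epithelial framework had narrow to moderate intervals around no change. MYO7B, the myosin that anchors the links between microvilli (known from mammals), had 1009 ± 158 and 1024 ± 124 CPM and a fold of 1.01 (0.829 to 1.24). Its levels ran from 756 to 1183 CPM in the control broilers (median 1021) and from 827 to 1168 CPM in the SB broilers (median 1045), and the diets overlapped throughout. KRT40, a type I keratin, had 1041 ± 336 and 1156 ± 258 CPM and a fold of 1.11 (0.767 to 1.61). COL17A1, a collagen that fastens epithelial cells to their base, had 124 ± 27.04 and 121 ± 39.9 CPM and a fold of 0.976 (0.694 to 1.37). EHF, an epithelial transcription factor of the ETS family, had a fold of 0.929 (0.723 to 1.19) and CLRN3, a membrane protein of the clarin family, 0.95 (0.748 to 1.21).

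Transporters and channels followed, and none of the 6 named here had an unadjusted P under 0.05 with all libraries. SLC9A3, the sodium-hydrogen exchanger of the brush border that takes up sodium, ran from 137 to 392 CPM in the control broilers (median 332) and from 148 to 446 CPM in the SB broilers (median 241). The diets overlapped over most of their range, and the fold was 0.852 (0.545 to 1.33). ABCB5, a membrane pump of the ABC family, had 42.5 ± 14.9 and 55.7 ± 12.9 CPM, the highest estimate among the 38 with a fold of 1.31 (0.941 to 1.82) and p = 0.115 (exact permutation). Its log2 fold change of 0.39 became 0.60 without control replicate 3, at an unadjusted P under 0.05. ATP10B, a pump that flips lipids across membranes, had 205 ± 30.8 and 175 ± 25.8 CPM and a fold of 0.853 (0.709 to 1.03), with 3 of 6 SB broilers under every control broiler. The log2 fold change of ATP10B, -0.23, was -0.29 without control replicate 4 and -0.28 without SB replicate 5, each at an unadjusted P under 0.05. SLC22A13L, named for its likeness to an organic anion transporter, had a fold of 0.861 (0.498 to 1.49). The calcium release channel RYR2 had 0.907 (0.685 to 1.2) and the sodium channel subunit SCN3B 0.786 (0.517 to 1.2).

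Among enzymes the intervals differed widely in length. CKMT1B, a mitochondrial creatine kinase that buffers ATP, had 165 ± 21.4 and 172 ± 25.7 CPM and a fold of 1.04 (0.874 to 1.24), one of the tightest. ENTPD8L2, by its name an ectonucleotidase that degrades extracellular ATP, had 30.9 ± 5.5 and 36.6 ± 6.3 CPM and a fold of 1.18 (0.951 to 1.47), which passed an unadjusted P of 0.05 without control replicate 5 (log2 fold change 0.34) or SB replicate 5 (0.31). PTGS2, the inducible enzyme of prostaglandin synthesis, had 41.5 ± 5.92 and 46.8 ± 8.71 CPM and a fold of 1.13 (0.921 to 1.38). VNN2, a pantetheinase-family protein, had 14.98 ± 2.05 and 12.3 ± 2.78 CPM and a fold of 0.822 (0.647 to 1.04), with 4 of 6 SB broilers under every control broiler and p = 0.102 (exact permutation). Without SB replicate 3 its log2 fold change of -0.28 became -0.38, at an unadjusted P under 0.05. At the other end CYP2C23a, a cytochrome P450 of the 2C family, had 1239 ± 857 and 979 ± 690.4 CPM and a fold of 0.791 (0.317 to 1.97), so that even a change of more than 2-fold downward lay within its interval. GPX2, the gastrointestinal glutathione peroxidase that reduces peroxides, was near the level limit with 10.3 ± 4.69 and 11.05 ± 6.5 CPM and a fold of 1.07 (0.577 to 1.99). The cholinesterase BCHE had 0.929 (0.564 to 1.53) and the carboxylesterase CES1L1 0.972 (0.564 to 1.68).

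Of 3 proteases, none had an unadjusted P under 0.05 in edgeR with all libraries. ADAM28, a membrane metalloprotease, had 247 ± 19.4 and 234 ± 29.8 CPM and a fold of 0.949 (0.82 to 1.1). The lower bound of this interval, which covers 1 gene at a time, is an 18% fall. CAPN8 and CAPN9, calcium-dependent proteases found in the digestive tract of mammals, had folds of 0.944 (0.76 to 1.17) and 0.858 (0.614 to 1.2). The log2 fold change of CAPN9, -0.22 with all libraries, was -0.40 without control replicate 4 and -0.27 without the 3 libraries that stood apart, both at an unadjusted P under 0.05.

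Secreted and signalling genes included AGR2, which folds mucins in goblet cells. AGR2 ran from 202 to 426 CPM in the control broilers (median 332) and from 235 to 500.1 CPM in the SB broilers (median 380.1), and its fold was 1.12 (0.79 to 1.58). SCTR, the receptor of the hormone secretin, had 12.95 ± 2.49 and 15.4 ± 2.91 CPM and a fold of 1.19 (0.935 to 1.51). DUSP6, a phosphatase that shuts off ERK signalling, had 16.9 ± 1.03 and 19.3 ± 7.11 CPM, with the higher SB mean carried by SB replicate 6 at 32.7 CPM, and its log2 fold change of 0.20 became -0.0175 without that library. ROS1, a receptor tyrosine kinase, had a fold of 0.851 (0.596 to 1.22), and SOSTDC1, a secreted antagonist of BMP and WNT ligands, 0.967 (0.766 to 1.22). FGFBP1, a carrier that frees fibroblast growth factors from the matrix, had 54.7 ± 37.7 and 51.1 ± 34.99 CPM and a fold of 0.933 (0.436 to 2.00).

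The other genes of the 38 were TTN, the giant spring protein of striated muscle, RFLNA, CARF, PLEKHM3, LAPTM4B, C4orf54, GATD3AL2, LOC107057295, LOC107052718 and LOC121113331. TTN had 49.97 ± 11.2 and 59.5 ± 25.02 CPM and a fold of 1.19 (0.802 to 1.77). PLEKHM3 and CARF, whose RefSeq spans on chromosome 7 overlap, had folds of 0.969 (0.848 to 1.11) and 0.96 (0.803 to 1.15). Whether the counting used strand is not given in the sources used here, so reads in the shared stretch may belong to either. LAPTM4B, a lysosomal membrane protein, had a fold of 1.09 (0.641 to 1.86), C4orf54 0.955 (0.631 to 1.45) and LOC107057295 0.827 (0.518 to 1.32). GATD3AL2 ran from 154 to 1025 CPM in the control broilers (median 416) and from 203 to 793 CPM in the SB broilers (median 333), and its fold was 0.693 (0.344 to 1.39). LOC121113331 ran from 7.8 to 85.4 CPM in the control broilers (median 15.6) and from 8.14 to 84.3 CPM in the SB broilers (median 33.3), with a fold of 1.31 (0.466 to 3.66), so a change of 2-fold in either direction lay within its interval. Its log2 fold change of 0.39 became 1.46 without control replicate 5, at an unadjusted P under 0.05.

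LOC107052718 was nearly silent except in 1 broiler of each diet. Control replicates 1 to 5 had 1.6, 2.05, 1.59, 0.353 and 79.4 CPM, and SB replicates 1 to 6 had 2.82, 79.7, 2.22, 2.55, 1.77 and 2.14 CPM. The high broiler of each diet was at nearly the same level, and all others were at 2.82 CPM or less. Its fold of 0.893 had an interval of 0.101 to 7.88, and the log2 fold change of -0.16 became 3.43 without control replicate 5 and -2.89 without SB replicate 2, each with an unadjusted P under 0.05. RFLNA, a regulator of filamin, also varied between broilers more than between diets, from 3.24 to 42.5 CPM in the control broilers (median 4.58) and from 4.08 to 28.1 CPM in the SB broilers (median 9.52), with a fold interval of 0.253 to 2.27. Names such as GATD3AL2, CES1L1, CKMT1B, ENTPD8L2, SLC22A13L and CYP2C23a belong to families with similar copies, between which the counting could have split reads.

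Several of these genes differed more between the 3 libraries that stood apart and the other 8 than between the diets. BCHE had 685, 463, 663, 223 and 710.3 CPM in control replicates 1 to 5 and 236, 612, 671, 604, 618 and 315 CPM in SB replicates 1 to 6. Its lowest values were those of control replicate 4 and SB replicates 1 and 6, and its mean was 258 CPM in the 3 libraries and 628 CPM in the other 8. Its level correlated with the first principal component at r = -0.99 (11 libraries, which share the component with the gene itself, given as a description).

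CYP2C23a had 2149, 646, 1114, 214 and 2071 CPM in the control and 297, 1378, 2101, 1079, 674 and 349 CPM in the SB libraries. The same 3 libraries held its lowest values, with a mean of 287 CPM in the 3 libraries and 1401 CPM in the other 8. SLC9A3 had a mean of 159.5 CPM in the 3 libraries and 319 CPM in the other 8, and SLC22A13L of 30.1 CPM in the 3 libraries and 81.9 CPM in the other 8. FGFBP1 went the other way, with 95.2 CPM in the 3 libraries and 36.8 CPM in the other 8, although control replicate 2 was high as well at 92.6 CPM. GPX2 was also higher, at 18.3 CPM in the 3 libraries and 7.84 CPM in the other 8. In all, 27 of the 41 genes with a symbol had a lower mean in the 3 libraries and 14 a higher mean. The same count over all well-expressed genes is not given here, so this is a description. The component that set the 3 libraries apart was computed from these genes among others, so such differences are partly built in. Levels of other cell types' markers in these libraries were not analysed here, and their part was not tested.

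The pancreas values stand beside the jejunal ones for the 38 genes, with the pancreas fold chosen for its size by the study. In the pancreas all 38 had an estimate of 2-fold or more, 33 higher and 5 lower in SB, and the jejunal 95% interval did not include the pancreas estimate for 36 of them, an interval that covers the jejunal error only. For the 31 with a jejunal interval inside 2-fold this followed from the choice of the 38. Tested in 1 fit over both tissues, the tissue difference in the diet effect had an unadjusted P from 0.00143 (VNN2) to 0.215 (LOC121113331, edgeR). The study chose the 38 for their difference in these same pancreatic libraries, so low P-values here were favoured by that choice and are not separate support. None of the 38 passed adjustment. MYO7B had 2.47 CPM in control and 8.29 CPM in SB pancreas, a log2 fold change of 1.71, against 0.021 in the jejunum. KRT40 had 1.17 CPM in control and 7.7 CPM in SB pancreas and log2 fold changes of 2.62 there and 0.15 in the jejunum. AGR2 had 1.85 and 0.16, and PTGS2 1.31 and 0.17. Many of these genes were at a few CPM or less in the pancreas and far higher in the jejunum, and the part of that in the pancreas estimates was not tested.

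The names of the columns carry the same bird numbers in both tissues for 10 birds, 5 of each diet, and per the study's methods both tissues came from the same broiler of a pen. Tested as an interaction over both tissues without a term for the bird (15032 genes), no gene had a diet difference that differed between jejunum and pancreas after adjustment (edgeR, 0 genes, smallest adjusted p = 1). At an unadjusted P under 0.05 there were 272 well-expressed jejunal genes (2.81%), against 3.47% of all genes tested, and 5838 of the 9674 genes were well expressed in both tissues. With the bird as a block over those 10 birds, chosen after seeing the data, the adjusted calls were again 0 (edgeR, smallest adjusted p = 0.999), and 306 well-expressed jejunal genes (3.16%) had an unadjusted P under 0.05, against 3.54% of all 14985 genes tested.

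**Figure D5:**
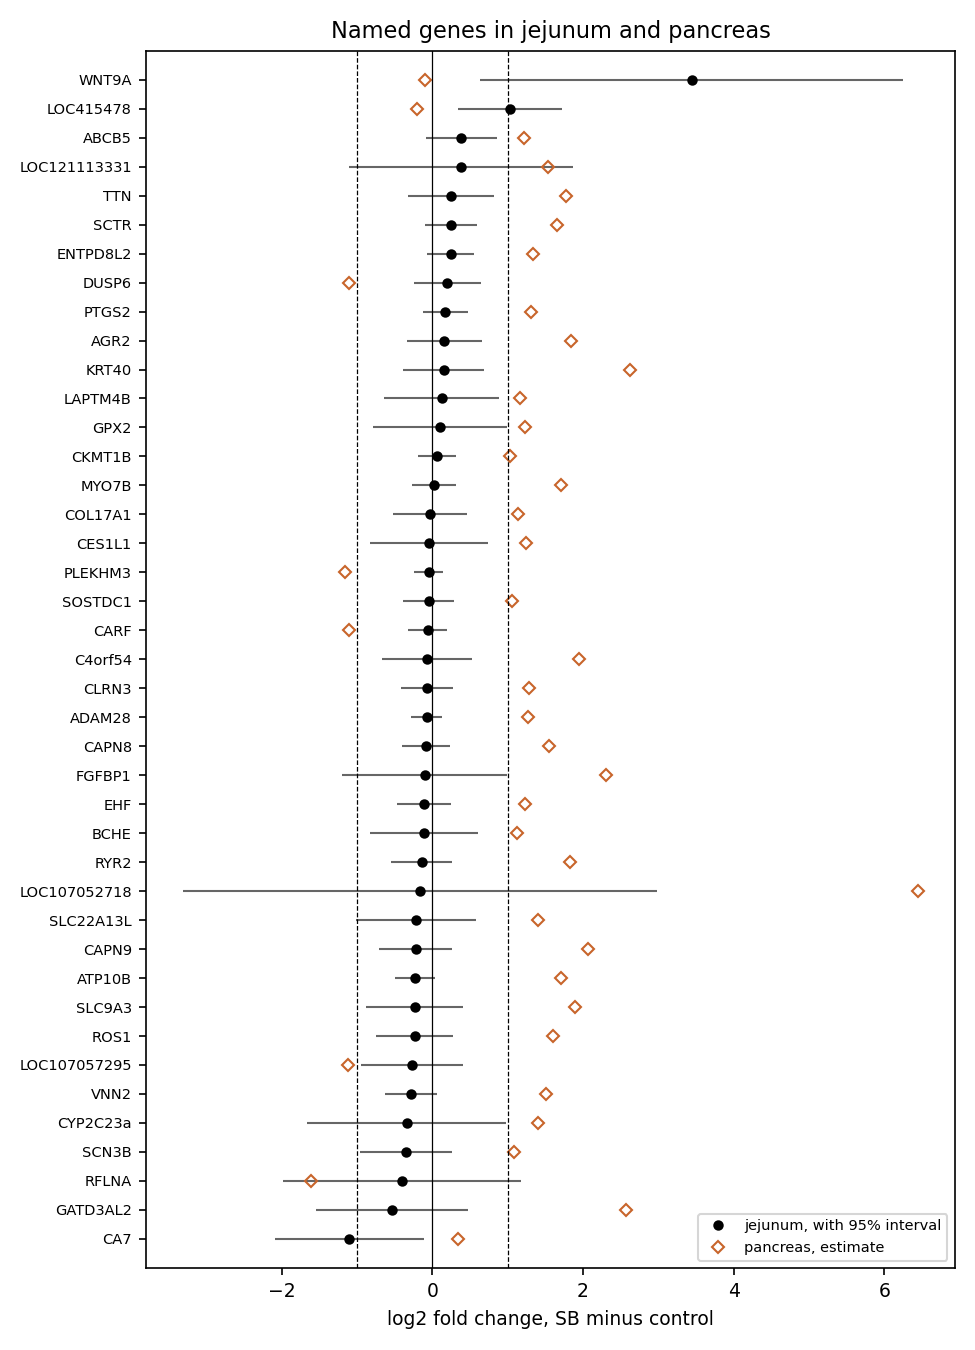
Log2 fold change (SB minus control, horizontal axis) of the 41 well-expressed genes with a symbol, with jejunal estimates and 95% intervals in black, pancreas estimates as open diamonds and dashed lines at 2-fold. Of the 38 genes other than WNT9A, LOC415478 and CA7, 31 have a jejunal interval inside 2-fold, and all 38 diamonds lie at or past 2-fold.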

How the data were processed

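RNA was sequenced from proximal jejunum and pancreas of male broilers with the Illumina Stranded mRNA kit. Per the study's methods, the authors used Trimmomatic to remove adapters and poor reads, mapped the rest to GRCg7b (STAR), counted genes (HTSeq) and left out libraries far from their diet group in a principal component analysis, for the jejunum those with higher RNA concentration; the deposited counts are whole numbers per Ensembl gene, not normalized. A second deposited table of normalized log2 values was not used. Counts were filtered (filterByExpr, minimum count 10, minimum total 15) and scaled to CPM by the trimmed mean of M-values (TMM), and diets were compared with the edgeR 4.0.16 quasi-likelihood test in R 4.3.3, with 95% intervals from its standard error and total degrees of freedom and Benjamini-Hochberg adjustment over all 14488 genes. DESeq2 1.42.0 and limma 3.58.1 were alternatives, with other filters, level limits, depth, a replicate block and single libraries left out. The script was tested on simulated data. Closest jejunal libraries of the same diet differed by 50.2 in chi-square per gene, so none was a repeat deposit within its diet. Pairs across diets were not compared.

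Symbols came only from the study's gene lists, by matching their fold changes and P-values to a refit of the counts: 41 of 41 jejunal and 123 of 125 pancreatic entries matched 1 identifier. Entries listed by identifier, 11 and 30, fell on their own. Coordinates are RefSeq GRCg7b by symbol. Named genes were those whose diets do not overlap, those with the smallest P, largest fold or highest CPM, members of 37 pathway and marker lists and those the study names, where a symbol was found, and otherwise at most 2 identifiers per direction. Only 6 of the 635 listed symbols were matched and well expressed, so the lists are not used. The members, lists and named genes were chosen with earlier results of these data known. Per the study's methods, 1 broiler was taken per pen.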

Additional observations from a re-analysis of the deposited data

Results flagged for a closer look

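In 8 of 92 groups of libraries tested over the named genes, 1 library lay far outside the others of its diet by Dixon's criterion, which chance gives in about 1 of 20 groups. WNT9A was at 157.5 CPM in SB replicate 6, where the next SB broiler was at 4.92 CPM. LOC107052718 was at 79.4 CPM in control replicate 5 and at 79.7 CPM in SB replicate 2, with the next broilers at 2.05 and 2.82 CPM. LOC121113331 was at 85.4 CPM in control replicate 5 against 16.9 CPM for the next control broiler. GATD3AL2 reached 793 CPM in SB replicate 5, and the next SB broiler had 405 CPM. GPX2 was at 18.4 CPM in control replicate 4 beside 10.3 CPM. SOSTDC1 had 12.5 CPM in control replicate 3 beside 10.8 CPM. ENSGALG00010022172 had 161.9 CPM in control replicate 2 beside 121.2 CPM. Only 2 of the 8 values came from control replicate 4 or SB replicates 1 and 6.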

How the results depend on the processing

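The count of well-expressed genes with an adjusted p under 0.05 was 0 under each alternative run. Unadjusted P under 0.05 (121 genes) became 382 (3.95%, against 4.43% of all genes tested) without the 3 libraries that stood apart. It became 314 (3.25%, against 3.94%, 135 higher and 179 lower in SB) with the first principal component as a covariate. Both alternatives were chosen after seeing the data. With single libraries left out the count ran from 78 to 304 (0.806% to 3.14%), and the share of all genes tested is not given for those fits. Genes past 2-fold and P under 0.05 (4) became 38 without the 3 libraries and 11 with the covariate. They became 2 with DESeq2, 1 with limma-voom, 7 at a limit of 5 CPM and 2 at 20 CPM. With single libraries left out they ran from 3 to 30. The shares of all genes tested are not given here for the fits with libraries left out or the covariate. Intervals inside 2-fold (9268) and 1.5-fold (8209) became 4481 and 420 when widened to hold together over all genes tested, also chosen after seeing the data, and ran from 9182 to 9255 and from 7828 to 8172. Genes whose diets do not overlap (5, 0.0517%, against 0.11% of all genes tested) became 8 (0.0827%) after thinning to the smallest library. At a limit of 5 CPM they were 10 of 11099 genes (0.0901%). They became 207 without the 3 libraries (2.14%, against 2.41% of all genes tested) and ran from 11 to 49 (0.114% to 0.507%) with single libraries left out. Fewer libraries overlap less, which bears on both counts with libraries left out. The shares of all genes tested after thinning and with single libraries left out are not given here. For the 46 named genes, 984 of 1010 values under alternatives kept their side of the threshold and any called direction, 14 lost and 11 gained a P under 0.05, and 70 changes of sign were in values with no call. LOC107052718 (-0.16) ran from -2.89 to 3.43 with single libraries left out. Replicate numbers did not pair the libraries (correlation of deviations -0.60, -0.13, 0.33, -0.57 and 0.37 for numbers 1 to 5). The replicate block gave 81 genes at P under 0.05, 3 past both thresholds and 9113 and 7766 intervals inside 2-fold and 1.5-fold, without the information of SB replicate 6, which had no partner.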
